A study of Mus musculus with 4 samples.

Results

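The YAP and TEAD target genes described here are 10 genes of the Hippo pathway and its output, chosen by name and not by their values: Yap1, Wwtr1, Tead1, Lats2, Ccn1, Ccn2, Ankrd1, Amotl2, Ajuba and Cd44. All 10 were present among the 28889 genes listed in the 3 libraries used. They were measured in single-cell RNA libraries of liver tumours from male C57BL/6 mice aged 18 weeks, collected 10 weeks after hydrodynamic tail vein injection, in which plasmid is forced from a tail vein into liver cells. The KLF2 mice received plasmids for c-MYC, AKT and KLF2, and the vector mice received c-MYC, AKT and an empty pT3 plasmid. Every mouse also received SB100X, a transposase that inserts the plasmid cargo into the genome, and each cargo was driven by the EF1α promoter, which is active in many cell types. The labels give 2 biological replicates per group. The counts of KLF2 replicates 1 and 2 and of vector replicate 2 were used, and vector replicate 1 was not analysed here. No vector spread could therefore be measured, and the p-values below rest on the spread between the KLF2 libraries alone.

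Hippo signalling controls organ size in the liver. The kinases Lats1 and Lats2 phosphorylate the coactivators YAP (Yap1) and TAZ (Wwtr1), which keeps them out of the nucleus. When the kinases are less active, YAP and TAZ bind TEAD factors such as Tead1 on DNA and switch on targets that include the matrix-associated proteins CCN1 and CCN2 and the nuclear ankyrin repeat protein ANKRD1. Amotl2 and Ajuba encode proteins that bind pathway components, and Lats2 and Amotl2 are themselves target genes that feed back on the pathway. Cd44 encodes a hyaluronan receptor that is also a marker of many activated leukocytes. In normal liver YAP is better known from bile duct and stellate cells than from resting hepatocytes.

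The 250 bases before the RefSeq start were available for 8 of the 10 genes (build GRCm38.p6) and were searched on both strands for GGAATG, the core of the motif that TEAD factors bind. It was found in 6 of the 8, namely Ccn1, Ankrd1, Amotl2, Ajuba, Yap1 and Wwtr1, and in 12.6% of all 32851 windows. Another pair of motifs was counted in the same windows on both strands, and overlap between motifs was not examined. TGANTCA, an AP-1 motif, was in none of the 8 and in 6.75% of all windows. CACCC, a core bound by Krüppel-like factors, was in 4 of the 8 (Ankrd1, Lats2, Wwtr1 and Yap1) and in 52.0% of all windows. The windows of Ccn1, Ajuba and the 2 coactivator genes are shown because their letters carry the TEAD core outside any annotated exon of their own gene. Capitals mark the core, written as CATTCC where it lies on the opposite strand.
Ccn1: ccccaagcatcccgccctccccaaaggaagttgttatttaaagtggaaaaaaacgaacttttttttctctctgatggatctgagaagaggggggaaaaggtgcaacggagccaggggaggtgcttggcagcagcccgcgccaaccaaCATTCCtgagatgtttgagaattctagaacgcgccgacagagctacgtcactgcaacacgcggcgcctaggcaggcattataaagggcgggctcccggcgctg
Ajuba: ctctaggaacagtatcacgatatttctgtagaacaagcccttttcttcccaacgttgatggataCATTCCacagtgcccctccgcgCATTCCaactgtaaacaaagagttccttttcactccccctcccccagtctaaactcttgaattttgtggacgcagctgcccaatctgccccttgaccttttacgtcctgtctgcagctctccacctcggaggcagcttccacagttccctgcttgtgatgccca
Yap1: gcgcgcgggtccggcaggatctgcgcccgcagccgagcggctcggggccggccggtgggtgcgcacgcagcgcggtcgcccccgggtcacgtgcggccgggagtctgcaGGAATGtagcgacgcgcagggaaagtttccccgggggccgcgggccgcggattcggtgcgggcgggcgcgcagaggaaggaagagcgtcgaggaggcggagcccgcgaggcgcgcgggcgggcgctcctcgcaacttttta
Wwtr1: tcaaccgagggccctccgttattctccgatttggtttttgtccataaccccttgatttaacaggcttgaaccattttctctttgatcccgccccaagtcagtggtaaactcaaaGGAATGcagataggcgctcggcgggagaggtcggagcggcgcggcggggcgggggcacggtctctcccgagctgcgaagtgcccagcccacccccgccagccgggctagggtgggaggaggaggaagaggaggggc
The Ccn1 window is chr3:145649986-145650235, the Ajuba window chr14:54577662-54577911, the Yap1 window chr9:8004597-8004846 and the Wwtr1 window chr3:57575911-57576160, all on the minus strand. The core starts 103 bases before the Ccn1 start. Ajuba holds the core at 186 and at 164 bases before its start. Ankrd1 holds it at 210 and 123 bases before its start and Amotl2 at 65, and for these only the site with 10 bases on each side is shown because an annotated exon overlaps the window.
Ankrd1, 210 bases: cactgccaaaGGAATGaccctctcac
Ankrd1, 123 bases: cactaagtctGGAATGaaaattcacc
Amotl2, 65 bases: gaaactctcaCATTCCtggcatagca
These matches are descriptions of letters and not of binding.

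Cells were grouped by clustering without the pathway genes, and each cluster was named from marker genes. Hepatocyte-like cells, in which all 12 hepatocyte markers had UMIs (unique molecular identifiers, each counting 1 captured transcript) in every library, numbered 8 and 44 in KLF2 replicates 1 and 2 and 590 in vector replicate 2. Biliary keratin cells, with Krt19 and Krt7, numbered 450 and 1399 in the KLF2 libraries. Clusters with little of the leukocyte gene Ptprc and no named type, called unnamed Ptprc-low, held 4180 and 5225 KLF2 cells. The vector library had 0 of 8403 cells in either of these groups, which allows a share of up to 0.0357%. The labels do not say which cells are tumour cells, and the unnamed cells are called only that. Klf2, the gene named in the plasmid, had 335 and 418 CPM in unnamed cells and 341 and 344 CPM in biliary keratin cells. In hepatocyte-like cells it had 146 and 96.9 CPM in KLF2 and 139.5 CPM in vector, so the groups overlapped there; whether plasmid transcripts are counted as Klf2 is not given in the sources used here. Stromal-like cells numbered 87 and 160 in the KLF2 libraries and 352 in the vector library, and endothelial-like cells 93 and 238 against 1661. In both classes the KLF2 and vector cells fell into different clusters. The KLF2 endothelial cluster was led by Gpihbp1, Igfbp3 and Ctla2a and held the sinusoidal genes Stab2 (488 and 333 CPM) and Clec4g (530 and 360 CPM), against 73.4 and 18.0 CPM in the vector cells. CPM is the usual depth-scaled unit, here relative to all UMIs of that class in that library.

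The libraries differed in ways that touch every comparison. The KLF2 libraries held 95374838 and 125458473 UMIs and the vector library 45594544, and the median share of mitochondrial UMIs in the cells kept was 0.223% and 0.345% in KLF2 against 11.9% in vector. Genes with a long annotated span were higher in KLF2 than short ones. In stromal-like cells, 26.0% of 3409 tested genes spanning at least 50 kb were called higher and 2.64% lower, against 4.75% and 11.4% of 7627 shorter genes. In endothelial-like cells these shares were 25.8% and 3.64% of 3162 long genes and 6.45% and 14.4% of 7320 short ones. Tead1, Wwtr1, Cd44, Yap1 and Lats2 are longer than 50 kb and the other 5 members are shorter. RNA set free from broken cells was roughly gauged by the 10 genes that lead the largest unnamed cluster, whose first genes are Car3 and Fxyd6. In KLF2 replicates 1 and 2 their summed level in T/NK-like cells was 17.85% and 13.3% of that in unnamed cells, in endothelial-like cells 12.0% and 15.7%, in stromal-like cells 18.1% and 17.25%, and in hepatocyte-like cells 30.6% and 17.35%. The vector library held none of these unnamed cells, yet the same genes summed there to 150 CPM in T/NK-like, 210 CPM in endothelial-like, 177 CPM in stromal-like and 641 CPM in hepatocyte-like cells, so their level in other classes cannot be read as free RNA of the unnamed cells alone. Dissociation stress genes, 18 early response and heat shock genes that rise during tissue digestion, summed to more CPM in both KLF2 libraries than in vector in hepatocyte-like, stromal-like and endothelial-like cells. In T/NK-like cells they summed to 5680 and 7900 CPM in KLF2 and to 13380 CPM in vector. The part of each of these in the results below was not tested except where a value is given.

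**Figure D1:**
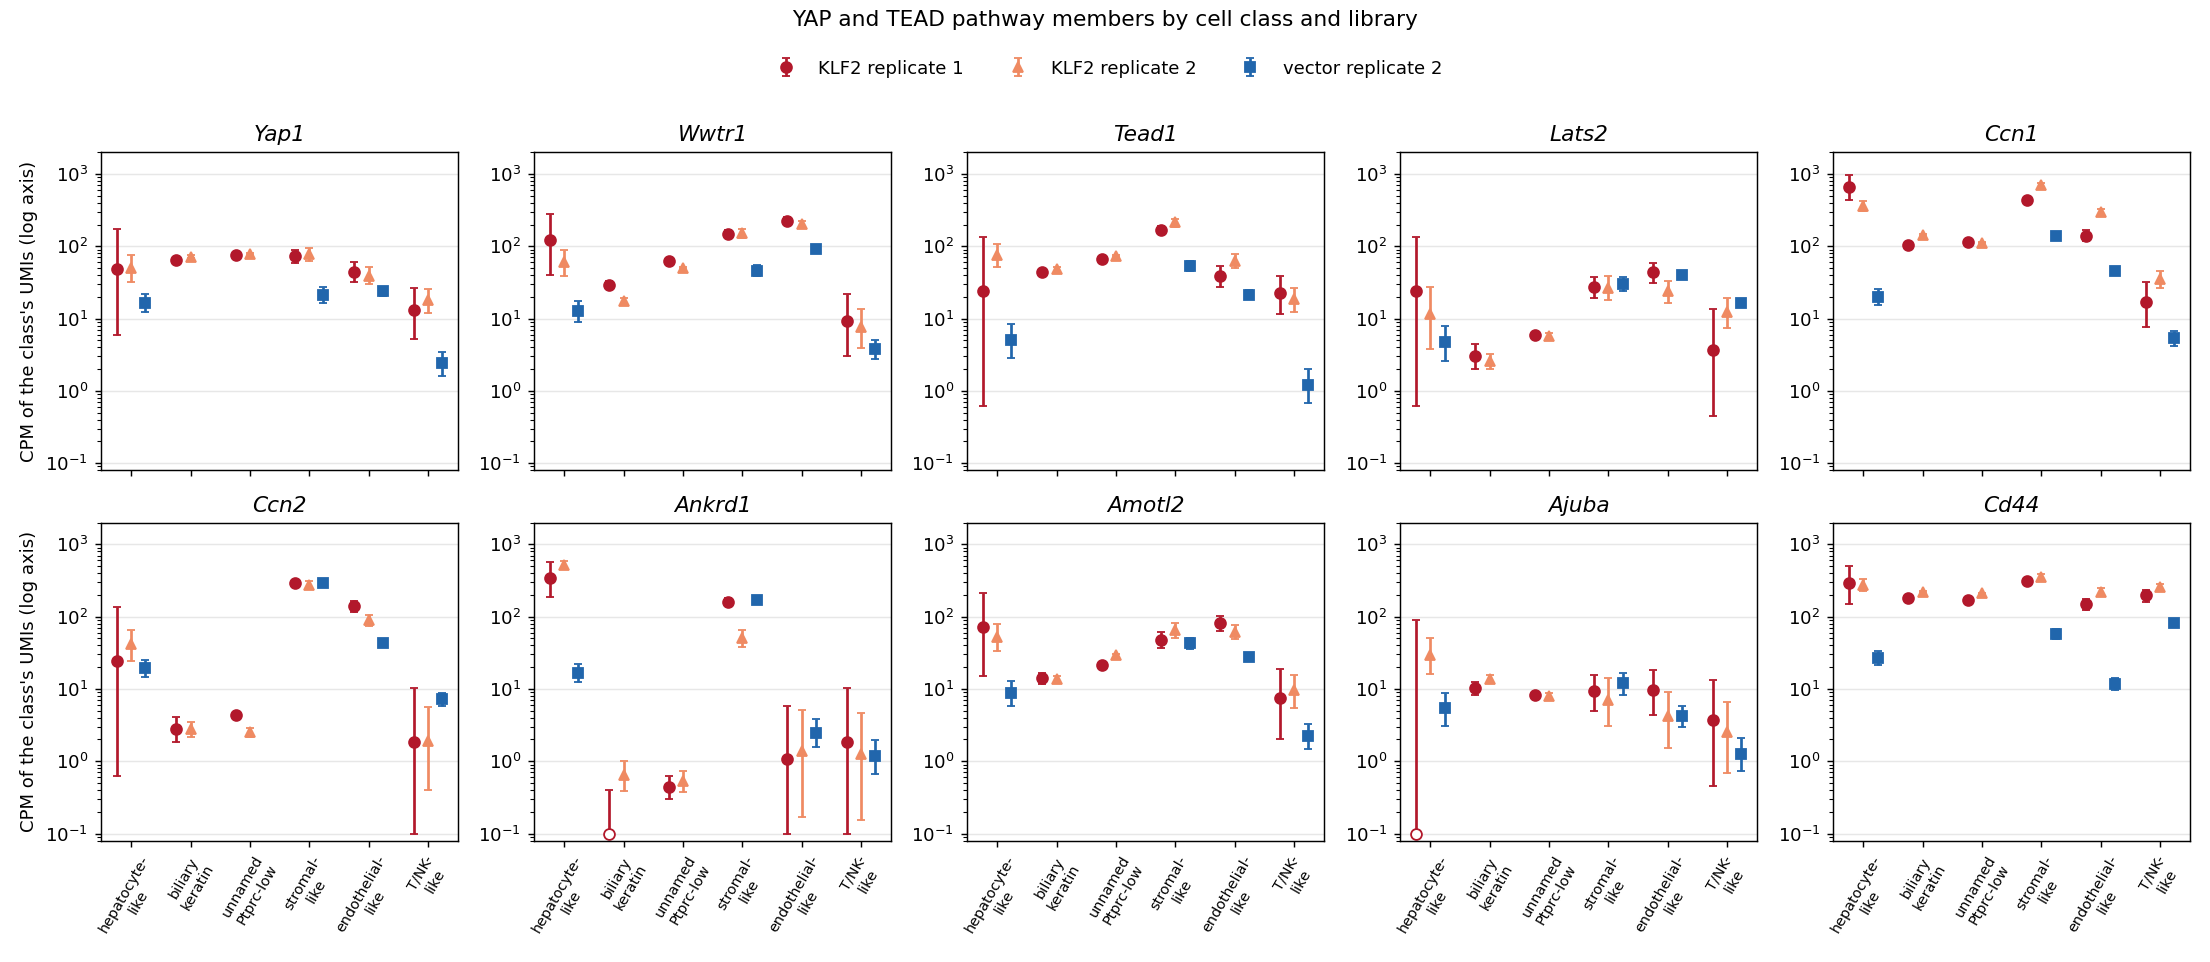
Level of each of the 10 genes in CPM (log axis) by cell class, for KLF2 replicate 1, KLF2 replicate 2 and vector replicate 2; bars are exact 95% Poisson intervals, which cover counting error only, and open symbols at 0.1 stand for 0 UMIs. Ankrd1 is high in hepatocyte-like and stromal-like cells and near 0 elsewhere, while Cd44 is at 149 CPM or more in every KLF2 class.

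Among the coactivators and their DNA-binding partner, Yap1 (ENSMUSG00000053110.13, GRCm38 chromosome 9, 7931999 to 8004596, minus strand) was found in every class. It stood at 74.96 and 77.55 CPM in unnamed Ptprc-low cells of KLF2 replicates 1 and 2, and at 65.3 and 71.6 CPM in biliary keratin cells. Stromal-like cells had 72.8 and 77.7 CPM in the KLF2 libraries, against 21.4 CPM in vector. Hepatocyte-like cells had 48.7 and 50.8 CPM in KLF2, against 16.6 CPM in vector. The KLF2 ranges of unnamed and stromal-like cells overlapped, biliary keratin cells lay just below both, and hepatocyte-like and endothelial-like cells lay lower. Endothelial-like cells had 44.5 and 39.3 CPM in KLF2 and 23.97 CPM in vector. T/NK-like cells, which are not known for Yap1, had 12.99 and 17.92 CPM in KLF2 and 2.40 CPM in vector, or 17.3% and 23.1% of the unnamed level. The endothelial-like levels were 59.35% and 50.69% of the unnamed level and so lay above that of T/NK-like cells of the same library.

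Wwtr1, which encodes TAZ (ENSMUSG00000027803.14, chromosome 3, 57455649 to 57575910, minus strand), had its highest class levels in endothelial-like cells. They were 226 and 201 CPM in KLF2 and 92.35 CPM in vector. Stromal-like cells came next with 148 and 151 CPM in KLF2 and 46.0 CPM in vector. In KLF2 hepatocyte-like cells the level was 122 CPM on 5 UMIs in replicate 1 and 59.98 CPM on 26 UMIs in replicate 2, against 12.8 CPM in vector. Unnamed cells had 63.2 and 49.5 CPM and biliary keratin cells 29.25 and 17.43 CPM, lower in both KLF2 libraries than the unnamed cells. T/NK-like cells had 9.28 and 7.68 CPM in KLF2 and 3.75 CPM in vector, 14.7% and 15.5% of the unnamed level in the KLF2 libraries.

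Tead1, which encodes the DNA-binding partner (ENSMUSG00000055320.17, chromosome 7, 112679318 to 112906807, plus strand), was highest in stromal-like cells. These had 167 and 214 CPM in KLF2 and 53.7 CPM in vector. Unnamed cells had 67.0 and 73.2 CPM, biliary keratin cells 44.3 and 48.7 CPM, and endothelial-like cells 39.2 and 63.2 CPM in KLF2 against 21.4 CPM in vector. The KLF2 endothelial-like range spanned that of the biliary keratin cells. Hepatocyte-like cells had 24.4 CPM on 1 UMI and 76.1 CPM on 33 UMIs in KLF2, against 5.07 CPM in vector. T/NK-like cells had 22.3 and 18.6 CPM in KLF2, below the endothelial-like cells of the same library, and 1.20 CPM in vector. They too were higher in KLF2, and the part of free RNA in these levels was not tested.

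Lats2, the kinase gene (ENSMUSG00000021959.16, chromosome 14, 57689662 to 57758388, minus strand), had higher levels in endothelial-like and stromal-like cells than in T/NK-like, unnamed and biliary keratin cells of the same library. Endothelial-like cells had 43.4 and 23.9 CPM in KLF2 and 39.8 CPM in vector, and stromal-like cells 27.1 and 26.8 CPM in KLF2 and 30.5 CPM in vector. The groups overlapped in endothelial-like cells, and in stromal-like cells vector was slightly above both. Unnamed cells had 5.895 and 5.721 CPM and biliary keratin cells 3.03 and 2.58 CPM. Hepatocyte-like cells had 24.4 CPM on 1 UMI and 11.5 CPM on 5 UMIs in KLF2, against 4.73 CPM in vector. T/NK-like cells had 3.71 CPM on 2 UMIs and 12.2 CPM on 19 UMIs in KLF2 and 16.4 CPM in vector, and myeloid-like cells of the KLF2 libraries 9.52 and 6.73 CPM.

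Of the target genes, Ccn1 (ENSMUSG00000028195.4, chromosome 3, 145646976 to 145649981, minus strand), whose TEAD core is printed above and which is also known as an early response gene, was higher in both KLF2 libraries than in vector in hepatocyte-like, stromal-like, endothelial-like and T/NK-like cells. Hepatocyte-like cells had 658 and 364.5 CPM in KLF2, against 19.9 CPM in vector. Stromal-like cells had 431 and 707 CPM in KLF2, against 140 CPM in vector. Endothelial-like cells had 141 and 300.5 CPM in KLF2, against 46.1 CPM in vector. Unnamed cells, at 114 and 112 CPM, and biliary keratin cells, at 104 and 141.5 CPM, were neighbours that overlapped, below the KLF2 stromal-like and hepatocyte-like cells. T/NK-like cells had 16.7 and 35.2 CPM in KLF2 and 5.35 CPM in vector, so they too were higher in KLF2. The KLF2 endothelial-like level was 123.9% and 268.5% of the unnamed level, and the part of free RNA in it was not tested.

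Ccn1 was also seen in more cells at equal depth. With every cell thinned to 1000 UMIs, 20.7% and 37.5% of KLF2 stromal-like cells had a Ccn1 UMI, against 10.1% in vector. Endothelial-like cells had 8.60% and 14.7% in KLF2, against 3.55% in vector. In T/NK-like cells the shares were 0% of 87 cells and 2.99% of 368 in KLF2 and 0.46% in vector. Without thinning the endothelial-like shares were 32.3% and 35.3% in KLF2 and 12.6% in vector.

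Ccn2 (ENSMUSG00000019997.11, chromosome 10, 24595442 to 24598683, plus strand), a relative of Ccn1, had another distribution. Stromal-like cells had 291 and 275 CPM in KLF2 and 291 CPM in vector. Endothelial-like cells had 141 and 89.9 CPM in KLF2, against 43.4 CPM in vector. The stromal-like groups overlapped and the endothelial-like groups did not. Hepatocyte-like cells had 24.4 CPM on 1 UMI and 41.5 CPM on 18 UMIs in KLF2, against 19.6 CPM in vector. Unnamed cells had 4.32 and 2.52 CPM and biliary keratin cells 2.82 and 2.76 CPM, where T/NK-like cells had 1.86 CPM on 1 UMI and 1.92 CPM on 3 UMIs in the same libraries and 7.27 CPM on 91 UMIs in vector. At 1000 UMIs per cell, 10.8% and 3.78% of KLF2 endothelial-like cells had a Ccn2 UMI against 4.42% in vector, so the shares of the groups overlapped where the CPM did not.

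**Figure D2:**
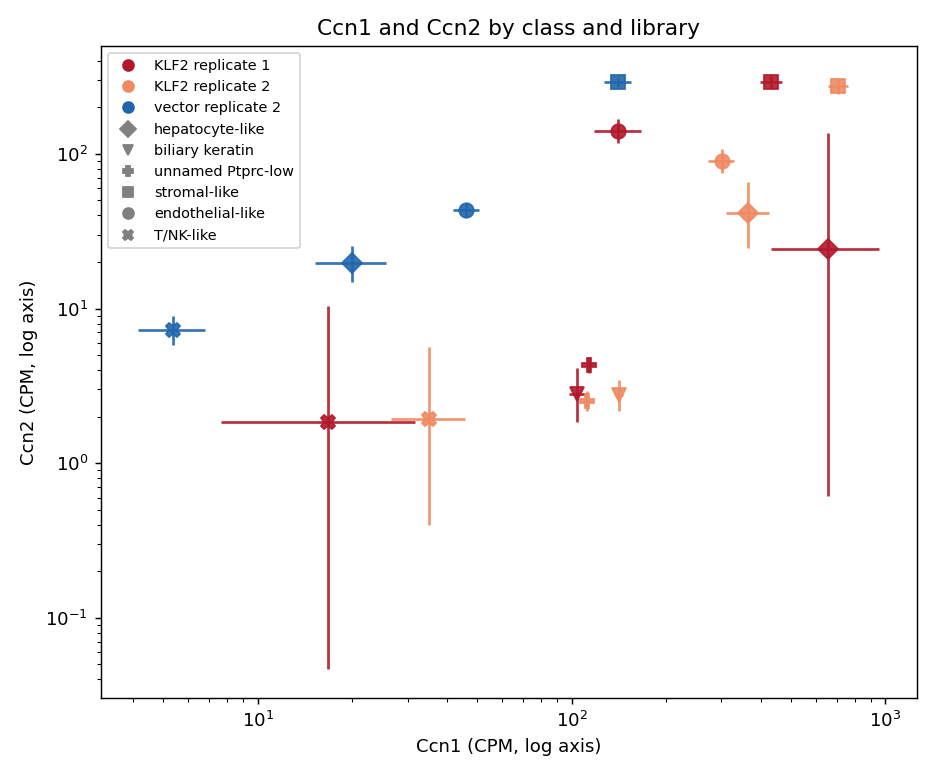
Ccn1 (horizontal) against Ccn2 (vertical) in CPM on log axes, 1 point per class and library with exact 95% Poisson intervals; colours are libraries and shapes are classes. Biliary keratin and unnamed Ptprc-low cells lie at 104 to 141.5 CPM of Ccn1 with Ccn2 under 5 CPM, and stromal-like cells of all 3 libraries lie at 275 to 291 CPM of Ccn2.

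Ankrd1 (ENSMUSG00000024803.9, chromosome 19, 36111961 to 36120099, minus strand) was found mainly in hepatocyte-like and stromal-like cells. Hepatocyte-like cells had 341 and 517 CPM in KLF2, against 16.9 CPM in vector. Stromal-like cells had 159 and 50.04 CPM in KLF2, against 169 CPM in vector. Unnamed cells had 0.442 and 0.529 CPM, endothelial-like cells 1.06 and 1.40 CPM in KLF2 and 2.50 CPM in vector, and biliary keratin cells 0 UMIs and 0.646 CPM. A count of 3 UMIs, the limit that a count of 0 allows, would be 0.325 CPM in the biliary keratin cells of KLF2 replicate 1. Few cells carried the high levels. In KLF2 replicate 1, 13 of the 14 Ankrd1 UMIs of hepatocyte-like cells came from 1 cell, and 167 of the 223 of stromal-like cells came from 1 cell. In KLF2 replicate 2, 18 of 44 hepatocyte-like cells held the 224 UMIs, with at most 67 in 1 cell. Vector had its 50 UMIs in 14 of 590 hepatocyte-like cells and its 481 stromal UMIs in 88 of 352 cells.

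Amotl2, a feedback target that encodes an angiomotin family scaffold (ENSMUSG00000032531.15, chromosome 9, 102716672 to 102733418, plus strand), was found in endothelial-like cells at 81.6 and 61.8 CPM in KLF2 and 27.9 CPM in vector. Stromal-like cells had 47.8 and 65.2 CPM in KLF2 and 43.2 CPM in vector, which is below the endothelial-like level in KLF2 replicate 1 and above it in the other two libraries. Hepatocyte-like cells had 73.1 CPM on 3 UMIs and 53.1 CPM on 23 UMIs in KLF2, against 8.78 CPM in vector. Unnamed cells, with 21.7 and 29.2 CPM, stood above biliary keratin cells, with 13.97 and 13.66 CPM, in both libraries.

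Ajuba, which encodes a LIM protein that binds LATS kinases (ENSMUSG00000022178.11, chromosome 14, 54567472 to 54577558, minus strand), was low in all classes. Biliary keratin cells had 10.3 and 13.9 CPM and unnamed cells 8.17 and 8.09 CPM. Stromal-like cells had 9.28 and 7.15 CPM in KLF2 and 11.9 CPM in vector. Hepatocyte-like cells had no UMI in KLF2 replicate 1, where 3 UMIs would be 73.1 CPM, and 30.0 CPM in KLF2 replicate 2, against 5.41 CPM in vector. Endothelial-like cells had 9.53 and 4.21 CPM in KLF2 and 4.20 CPM in vector, near the 3.71 and 2.56 CPM of KLF2 T/NK-like cells.

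Cd44, the hyaluronan receptor gene (ENSMUSG00000005087.17, chromosome 2, 102811141 to 102901665, minus strand), lay in a narrow band in the KLF2 libraries. Its 16 class levels there ran from 149 to 407 CPM, with endothelial-like cells at the low end (149 and 222 CPM) and myeloid-like cells (390 and 407 CPM) and the haemoglobin-led droplets (360 and 391 CPM) at the high end. Stromal-like cells had 310 and 357 CPM in KLF2, against 57.5 CPM in vector. In vector the order of the classes was different, with 82.7 CPM in T/NK-like cells, 26.7 CPM in hepatocyte-like cells and 11.8 CPM in endothelial-like cells. No KLF2 class gave a background for this gene. At 1000 UMIs per cell, 16.1% and 23.1% of KLF2 endothelial-like cells and 18.4% and 20.9% of KLF2 T/NK-like cells had a Cd44 UMI, against 1.49% and 7.75% in vector. The KLF2 endothelial-like level was 89.0% and 104% of the unnamed level, and the part of free RNA in it was not tested.

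Among the unnamed Ptprc-low and biliary keratin clusters of the KLF2 libraries, which were not tested against each other, the members had different peaks. Ccn1 was highest in the unnamed cluster led by Ibsp and Serpinf1, genes known from bone and matrix, at 271 and 480 CPM, and next in the cluster led by Cdan1 and Ptprt, at 188 and 229 CPM. The Car3-led cluster, the largest, had 70.9 and 61.6 CPM. Within these clusters Ccn2 was also highest in the Ibsp-led and Cdan1-led ones but reached only 12.25 and 11.03 CPM in the Ibsp-led cluster and 9.39 and 7.02 CPM in the Cdan1-led one. Tead1 was highest in the Cdan1-led cluster, at 361 and 275 CPM, and next in the cluster led by Cntn4 and Lsamp, at 153 and 168.5 CPM, against 47.4 and 50.3 CPM in the Car3-led cluster. Wwtr1 (247.5 and 208 CPM), Yap1 (168 and 197 CPM) and Cd44 (538 and 584 CPM) were highest in the Cdan1-led cluster too. Though unnamed, that cluster was nearest to the biliary keratin markers, with a mean log2 change of 0.905 where a name needed 1.0. Of these markers, 8 were higher there and found in at least 25% of its cells. Malat1, a nuclear RNA, stood at 27420 and 24220 CPM in the Cdan1-led cluster and at 11590 and 11200 CPM in the Cntn4-led one, against 1278 and 1212 CPM in the Car3-led cluster. The part of nuclear RNA and of long gene span in these cluster levels was not tested. In the Malat1-led cluster, with 34530 and 25860 CPM of Malat1, Tead1 was at 78.7 and 71.3 CPM and Yap1 at 61.0 and 52.9 CPM, lower than in the Cdan1-led cluster.

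**Figure D3:**
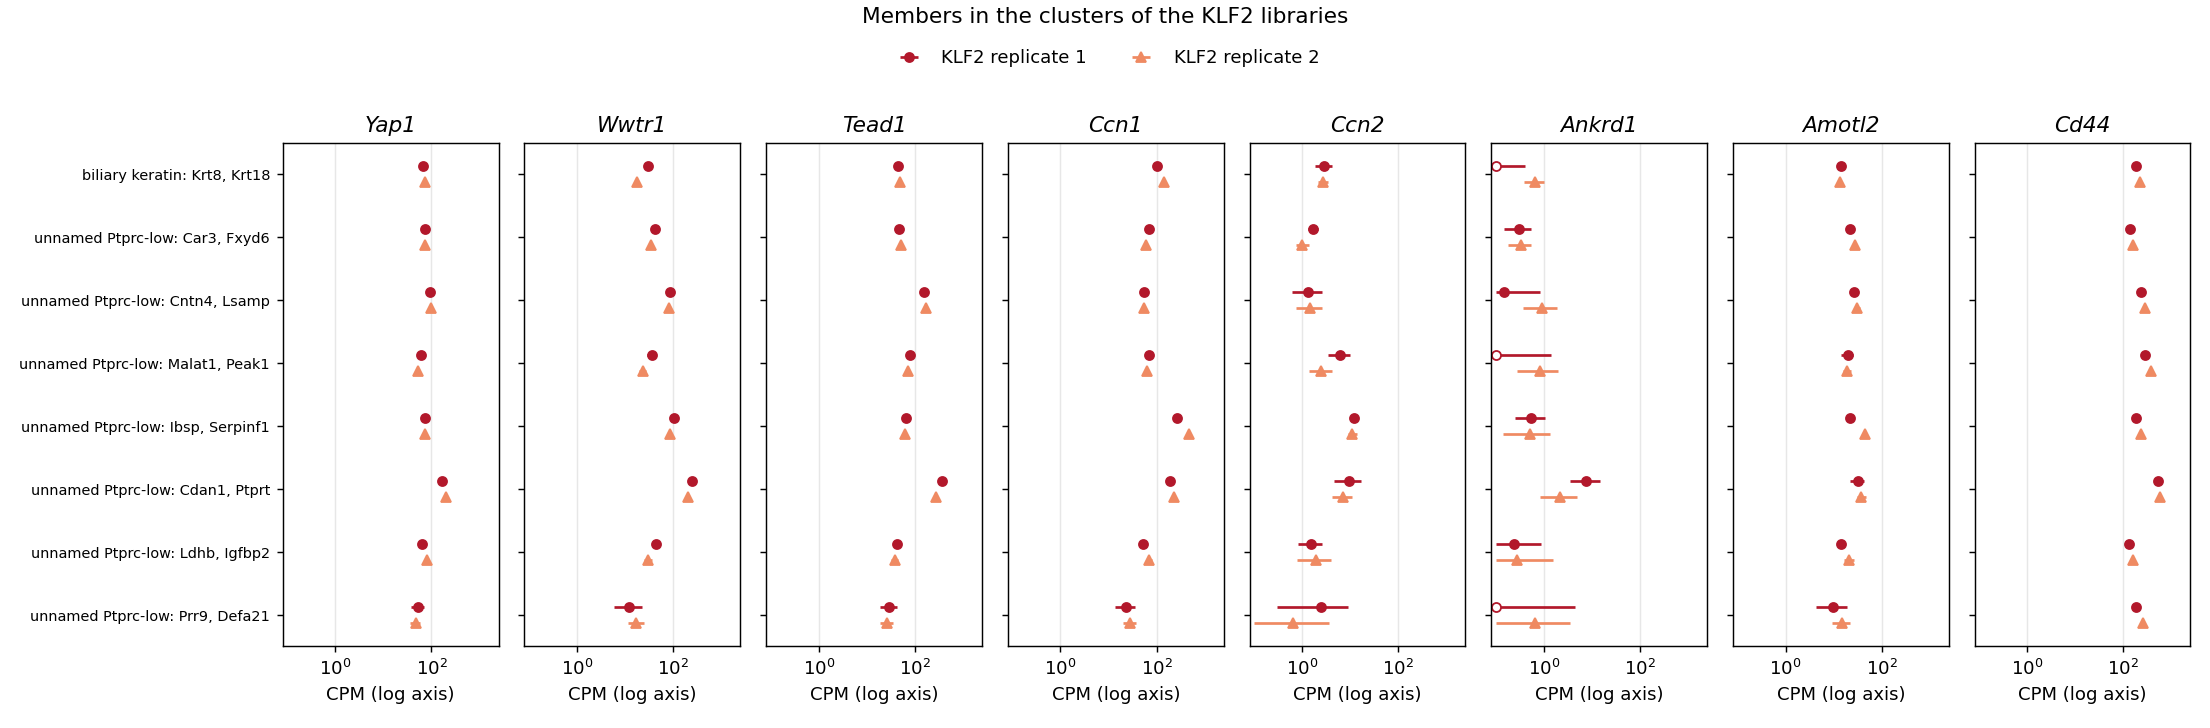
Level of 8 of the genes in CPM (log axis) in each cluster of the biliary keratin and unnamed Ptprc-low cells of KLF2 replicates 1 and 2, with exact 95% Poisson intervals; rows give the leading genes of a cluster. Tead1, Wwtr1, Yap1 and Cd44 peak in the Cdan1-led cluster, and Ccn1 peaks in the Ibsp-led cluster at 271 and 480 CPM.

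KLF2 was then set against vector within each class by the edgeR quasi-likelihood test on summed UMIs, over all genes at a Benjamini-Hochberg adjusted p of 0.05. In stromal-like cells, 4 of the 10 members rose and none fell. Cd44 rose with a log2 fold change of 1.94 (SE 0.42, adjusted p = 0.00364) and Ccn1 with 1.42 (SE 0.43, adjusted p = 0.0286). Tead1 rose by 1.23 (SE 0.41, adjusted p = 0.0427) and Yap1 by 1.21 (SE 0.41, adjusted p = 0.045). The background was 11.4% of 11110 genes called higher and 8.7% lower, or 1264 and 967 genes, and without TMM factors 2601 and 465. Cd44, Tead1 and Yap1 span at least 50 kb, a length at which 26.0% of genes tested were called higher. Ccn1 is shorter, where 4.75% were. As plain CPM, 6 of the 10 were higher in both KLF2 libraries than in vector, against 65.9% of all genes. Wwtr1 had 1.10 (adjusted p = 0.0583), Ankrd1 −1.29 (adjusted p = 0.0685) and Ccn2 −0.64 (adjusted p = 0.239). The median over the 10 was 0.44, against 0.08 over all genes tested. The calls of Ccn1, Tead1 and Yap1 were each lost in 6 of 12 alternatives. With DESeq2 only Cd44 of the 4 remained called.

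In endothelial-like cells, 4 of the 9 members tested rose and none fell, with a background of 12.3% of 10551 genes higher and 11.1% lower, or 1303 and 1175 genes, and without TMM factors 2170 and 547. As plain CPM, 8 of the 9 were higher in both KLF2 libraries than in vector, against 57.6% of all genes. Cd44 had a log2 fold change of 3.59 (SE 0.42, adjusted p = 0.000311) and Ccn1 1.90 (SE 0.48, adjusted p = 0.018). Ccn2 rose by 0.97 (SE 0.30, adjusted p = 0.0384) and Amotl2 by 0.93 (SE 0.27, adjusted p = 0.0307). Single cells held much of Ccn1 and Ccn2 in KLF2. For Ccn1 the highest cell held 30 of 133 UMIs in KLF2 replicate 1, 115 of 428 in KLF2 replicate 2 and 15 of 406 in vector. For Ccn2 it held 20 of 133, 40 of 128 and 22 of 382. Wwtr1 had 0.79 (adjusted p = 0.0658), Tead1 0.90 (adjusted p = 0.092), Lats2 −0.70 (adjusted p = 0.122) and Yap1 0.39 (adjusted p = 0.343). Ankrd1 had too few UMIs and was left out by the filter on low counts. The median over the 9 was 0.90, against 0.02 over all genes tested. With DESeq2 Cd44 was called and Ccn1, Ccn2 and Amotl2 were not, and thinning to 1000 UMIs left no gene called. Without KLF2 replicate 2 the value of Ccn1 was 1.14, and without KLF2 replicate 1 it was 2.45. The 2 groups stand for different endothelial clusters, so a change within 1 kind of endothelial cell and a change in kind cannot be told apart.

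**Figure D4:**
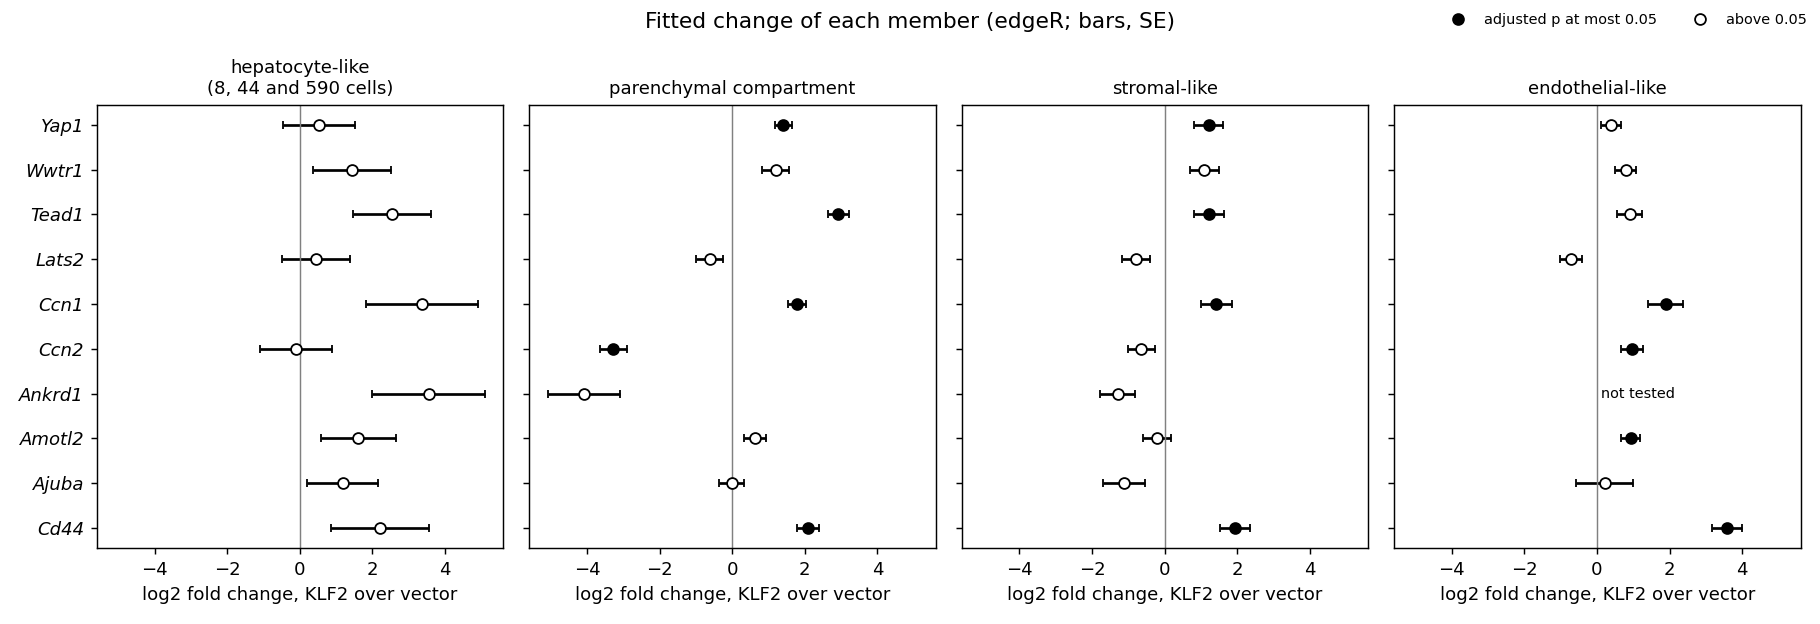
Fitted log2 fold change, KLF2 over vector, with SE bars, for the 10 genes in 4 fits of 2 KLF2 libraries and 1 vector library; filled points have an adjusted p of at most 0.05. Cd44 and Ccn1 are filled on the right of 0 in the compartment, stromal-like and endothelial-like fits, and Ccn2 is filled on the left of 0 only in the compartment.

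The parenchymal compartment joins hepatocyte-like, biliary keratin and unnamed Ptprc-low cells. Its 590 vector cells were all hepatocyte-like, and its 4638 and 6668 KLF2 cells nearly all were not, so this fit compares different kinds of cells. Relative to hepatocyte-like vector cells, 4 members rose and 1 fell, with a background of 13.1% of 20173 genes higher and 10.2% lower, or 2639 and 2062 genes, and without TMM factors 6798 and 1559. As plain CPM, 8 of the 10 were higher in both KLF2 libraries than in vector, against 75.8% of all genes. Tead1 rose, with 64.4 and 66.4 CPM in KLF2 against 5.07 CPM in vector (log2 fold change 2.93, SE 0.28, adjusted p = 0.00949). Cd44 rose by 2.09 (SE 0.31, adjusted p = 0.0192), Ccn1 by 1.79 (SE 0.25, adjusted p = 0.0171) and Yap1 by 1.41 (SE 0.23, adjusted p = 0.0247). Ccn2 fell, with 4.16 and 2.76 CPM in KLF2 against 19.6 CPM in vector (log2 fold change −3.27, SE 0.37, adjusted p = 0.0123). Ankrd1 had 0.563 and 2.80 CPM in KLF2 against 16.9 CPM in vector and did not pass (−4.08, SE 1.00, adjusted p = 0.0551), though it did in 9 of 13 alternatives. Lats2, Amotl2, Ajuba and Wwtr1 did not pass. All genes tested had a median of 0.70, so Ccn1 lay 1.09, Yap1 0.71 and Tead1 2.23 above that median. Of 5216 genes spanning at least 50 kb, 24.4% were called higher, and of 14633 shorter genes 9.03%.

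Within hepatocyte-like cells the KLF2 replicate 1 library had fewer than the 10 cells set as a minimum, and the fit of all 3 libraries was added after the cell numbers were known. No member passed by edgeR, where 3 (Ccn1, Ankrd1 and Tead1) had an unadjusted p under 0.05, and 0 passed with DESeq2. Ankrd1 had a log2 fold change of 3.55 (SE 1.55, adjusted p = 0.382), Ccn1 3.37 (SE 1.54, adjusted p = 0.437), Tead1 2.54 (SE 1.07, adjusted p = 0.33) and Cd44 2.21 (SE 1.35, adjusted p = 0.709). In this fit 1.04% of 7226 genes were called higher and 1.09% lower, or 75 and 79 genes, and without TMM factors 161 and 47. As plain CPM, 9 of the 10 members were higher in both KLF2 libraries than in vector, where 58.0% of all genes tested were. In KLF2 replicate 1, however, 1 UMI was 24.4 CPM, above the vector level of every member but Cd44 (26.7 CPM). There 1 UMI was enough to count as higher, and Ccn2, Tead1 and Lats2 had only 1 UMI each. Ccn1 stood 33.0-fold and 18.3-fold above vector in KLF2 replicates 1 and 2 by CPM, and Ankrd1 20.2-fold and 30.6-fold. The few cells behind the Ankrd1 values are given above. For Ccn1, 1 of the 8 cells of KLF2 replicate 1 held 23 of its 27 UMIs. In KLF2 replicate 2, 25 of 44 cells held the 158 Ccn1 UMIs, with at most 46 in 1 cell. Vector had its 59 Ccn1 UMIs in 26 of 590 cells. After thinning to 1000 UMIs per cell, with fewer genes tested, Ankrd1 (log2 5.01, adjusted p = 0.00292), Ccn1 (3.81, adjusted p = 0.0157) and Cd44 (3.14, adjusted p = 0.0299) passed. The thinned sum of KLF2 replicate 1 held only 8000 UMIs from 8 cells, of which 1 had a Ccn1 UMI. In KLF2 replicate 2, 13 of 44 thinned cells had a Ccn1 UMI, and in vector 7 of 569. The hepatocyte-like cells also held markers of other types. The 10 biliary keratin markers summed to 731 and 1013 CPM in KLF2, against 107 CPM in vector, and the 11 T/NK markers to 0 and 20.8 CPM in KLF2, against 373 CPM in vector. Dissociation stress genes summed to 5751 and 13610 CPM in KLF2 and 3069 CPM in vector. Their part in the member levels was not tested.

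The difference of the KLF2 effect between classes was tested directly, with the library as a term, over 12845 genes. For Ankrd1 the effect in hepatocyte-like cells exceeded that in stromal-like cells by 5.04 on the log2 scale (edgeR adjusted p = 3.7e-06) and that in endothelial-like cells by 5.03 (adjusted p = 0.00518). No other member differed in any of the 3 pairs of classes, and the lowest adjusted p among them was 0.367 for Amotl2, hepatocyte-like minus stromal-like. This fit had 2 residual degrees of freedom and used the 8 hepatocyte-like cells of KLF2 replicate 1. Its filter on low counts covered the sums of all 3 classes together. Ankrd1 passed it through the hepatocyte-like and stromal-like sums, as the same filter had left it out of the endothelial-like fit. The difference from endothelial-like cells rests there on 1 and 2 Ankrd1 UMIs in KLF2 and 22 in vector.

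Of 24 other YAP target genes, 5 rose and 4 fell among 23 tested in stromal-like cells, 7 rose and 3 fell among 21 in endothelial-like cells, and 4 rose and 3 fell among 24 in the compartment. Over all genes tested, 11.4% rose and 8.7% fell in stromal-like, 12.3% and 11.1% in endothelial-like and 13.1% and 10.2% in compartment cells, and the compartment count of the list is near that share. Rbms3, an RNA-binding protein gene, rose in all 3, with 252 and 660 CPM in KLF2 stromal-like cells against 45.6 CPM in vector (log2 fold change 2.73, SE 0.56, adjusted p = 0.00247). Thbs1, the matrix protein thrombospondin, rose in endothelial-like cells (66.7 and 45.6 CPM in KLF2, 7.61 CPM in vector, adjusted p = 0.000608) and in the compartment (adjusted p = 0.0493). The RhoGAP gene Dlc1 rose in stromal-like (log2 fold change 2.10, adjusted p = 0.00802) and endothelial-like cells (1.21, adjusted p = 0.013). Cavin2, a caveolar coat gene, fell in stromal-like cells (12.1 and 24.1 CPM in KLF2, 53.3 CPM in vector, adjusted p = 0.00176), in the compartment (adjusted p = 0.0276) and in endothelial-like cells (339 and 184 CPM in KLF2, 466 CPM in vector, adjusted p = 0.01305). The actin crosslinker Flna fell in endothelial-like cells (205.5 and 150.2 CPM in KLF2, 353 CPM in vector, adjusted p = 0.00405) and in stromal-like cells (adjusted p = 0.0204). In the compartment Tgfb2 rose (44.95 and 33.62 CPM in KLF2, 4.05 CPM in vector) and the receptor kinase gene Axl fell (2.37 and 2.09 CPM in KLF2, 8.78 CPM in vector), and Axl fell in stromal-like cells too (adjusted p = 0.0205). In hepatocyte-like cells Rbms3 rose (48.7 and 76.1 CPM in KLF2, 1.69 CPM in vector, adjusted p = 0.0291) and Igfbp3 fell (0 and 18.5 CPM in KLF2, 153 CPM in vector, adjusted p = 0.0316), the only 2 of 13 tested. Igfbp3 fell in stromal-like cells as well (adjusted p = 0.0257). The median log2 fold change of the list was 0.62 in stromal-like, 0.78 in endothelial-like and 0.50 in compartment cells, against 0.08, 0.02 and 0.70 over all genes tested. Calls in this list were not split by gene span. Among all genes tested in stromal-like cells, 26.0% of those spanning at least 50 kb rose, against 4.75% of shorter ones. The part of span in the changes of this list was not tested.

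Of 27 other Hippo pathway genes, 3 rose and 1 fell in stromal-like cells, 4 rose and 2 fell among 25 tested in endothelial-like cells, and 8 rose and 2 fell in the compartment. Over all genes, 11.4% rose and 8.7% fell in stromal-like cells, 12.3% and 11.1% in endothelial-like cells and 13.1% and 10.2% in the compartment, and the stromal-like and endothelial-like counts of genes that rose are near these shares. Stk3, which encodes the MST2 kinase that activates LATS, rose in all 3, with 66.35 and 71.49 CPM in KLF2 stromal-like cells against 11.9 CPM in vector (log2 fold change 1.93, adjusted p = 0.00483) and 71.0 and 63.9 CPM in KLF2 endothelial-like cells against 14.5 CPM in vector (1.80, adjusted p = 0.00162). Mob1b, which encodes a LATS cofactor, rose in stromal-like (adjusted p = 0.0201) and endothelial-like cells (adjusted p = 0.0271). Wwc1, the gene of the scaffold KIBRA, rose in stromal-like cells (27.83 and 21.45 CPM in KLF2, 2.105 CPM in vector, adjusted p = 0.00232) and in endothelial-like cells (adjusted p = 0.03165). Taok2, an upstream kinase gene, fell in all 3, with 19.98 and 13.40 CPM in KLF2 stromal-like cells against 46.0 CPM in vector (adjusted p = 0.00156), 99.6 and 64.6 CPM in KLF2 endothelial-like cells against 167 CPM in vector (adjusted p = 0.00512), and an adjusted p of 0.0378 in the compartment. Tead2 fell in endothelial-like cells (9.53 and 18.95 CPM in KLF2, 31.0 CPM in vector, adjusted p = 0.0248) and rose in the compartment (44.5 and 25.6 CPM in KLF2, 3.04 CPM in vector, adjusted p = 0.0414). Vgll4, a TEAD cofactor that competes with YAP, rose in the compartment (141 and 128 CPM in KLF2, 22.0 CPM in vector, adjusted p = 0.0164), as did the cadherin gene Fat1 (adjusted p = 0.0204; also higher in endothelial-like cells, adjusted p = 0.0384) and the angiomotin gene Amot (adjusted p = 0.0236). In hepatocyte-like cells none of 20 passed by edgeR, where Wtip and Fat1 had the lowest unadjusted p, 0.0435 and 0.0443. The list's median was 0.14 in stromal-like, 0.01 in endothelial-like and 1.09 in compartment cells, against 0.08, 0.02 and 0.70 over all genes tested. These calls were not split by gene span either, and the part of span in them was not tested.

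Of the 18 dissociation stress genes, 2 rose in stromal-like cells, near the 11.4% of all genes there, 7 rose and 2 fell in endothelial-like cells, where 12.3% of all genes rose, and 7 rose in the compartment, where 13.1% did. Atf3, a stress-induced transcription factor gene, rose in all 3 fits, with 257 and 438 CPM in KLF2 endothelial-like cells against 17.5 CPM in vector (log2 fold change 3.93, adjusted p = 0.000336). Ier3 also rose in all 3, and Socs3, a feedback inhibitor of cytokine signalling, rose in endothelial-like cells (196 and 326 CPM in KLF2, 17.7 CPM in vector) and in the compartment. Ier2 rose in the compartment (429 and 633 CPM in KLF2, 79.4 CPM in vector), and Nr4a1 fell in endothelial-like cells (33.9 and 41.4 CPM in KLF2, 82.5 CPM in vector, adjusted p = 0.00401). In hepatocyte-like cells Atf3 had 414 and 1004 CPM in KLF2 and 17.9 CPM in vector and did not pass (adjusted p = 0.299), nor did Nr4a1 (adjusted p = 0.377). The list summed to 4003 and 9782 CPM in KLF2 stromal-like cells against 3464 CPM in vector, and to 4911 and 7575 CPM in KLF2 endothelial-like cells against 2730 CPM in vector. The part of sample preparation in the rise of Ccn1 was not tested.

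As a description, the patterns most like those of 3 members were sought over 28 sums of a class in a library (11 classes, at least 20 cells each) among 3811 genes, by Pearson's r of log2(CPM + 10). These sums share libraries, depth and free RNA. Ccn1 was nearest to Lpp (r = 0.91), Wasl (0.903) and Nedd4 (0.903). Ccn2 was nearest to Igfbp7 (0.959), Rhoj (0.953) and Nid1 (0.931), and Yap1 to Lzts2 (0.912), Wipi1 (0.906) and Wasl (0.904). The sets of Ccn1 and Ccn2 share no gene, while those of Ccn1 and Yap1 share Wasl.

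At the level of single cells thinned to 1000 UMIs, Ccn1 and Ccn2 were counted together. In KLF2 replicate 1, 5 of 87 stromal-like cells had both, 18 had Ccn1 and 8 had Ccn2. In KLF2 replicate 2, 12 of 160 stromal-like cells had both, 60 had Ccn1 and 21 had Ccn2, and in vector 11 of 348 had both, 35 had Ccn1 and 61 had Ccn2. If the genes were independent, 1.655, 7.875 and 6.135 stromal-like cells with both would be expected in KLF2 replicates 1 and 2 and vector. Of KLF2 endothelial-like cells, 0 of 93 and 0 of 238 had both (0.86 and 1.32 expected). In vector 5 of 1606 had both (2.52 expected). Of the biliary keratin cells of KLF2 replicate 2, 175 of 1399 had a Ccn1 UMI, 2 a Ccn2 UMI and 1 both.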

How the data were processed

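Single-cell suspensions of digested liver tumours were sequenced as DNBelab droplet libraries. The deposited values are raw UMI counts per gene and cell, on GRCm38 per the submitters' processing notes. PISA 1.0 is recorded with the counts of KLF2 replicate 2. No source used here states aligner settings or use of strand. Labels put samples in the KLF2 or vector group, and nothing says how many tumours were pooled. Barcodes under 300 genes or above 25% mitochondrial UMIs were dropped, which removed 1.16% and 1.22% of KLF2 barcodes and 34.6% of vector barcodes. KLF2 replicates 1 and 2 kept 6209 and 11103 cells with medians of 8912 and 5854 UMIs, and vector replicate 2 kept 8403 with a median of 3191. Barcode names are running labels, and up to 1146 were shared between libraries. Scrublet called 0 doublets in each library, so its calls were not relied on and no doublets were removed; leaving out the 5% of cells with the highest scores is an alternative.

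Cells were clustered with scanpy 1.11.5 and leidenalg 0.10.2 (2000 variable genes without pathway genes, 30 components, 15 neighbours, resolution 1.0). Clusters were named from the mean log2 change of each type's markers against all other cells. A name needed a mean of at least 1.0, a lead of 0.5 over the next type and a marker among the 10 leading genes. At least 3 markers also had to be higher there and found in at least 25% of its cells. Unnamed clusters can therefore hold more than 3 markers of a type. Counts were summed per class and library and tested with edgeR 4.0.16 (R 4.3.3), TMM factors, the default filter on low counts and Benjamini-Hochberg adjustment over all genes; this left 1 residual degree of freedom. DESeq2 1.42.0 was an alternative. The script was tested on simulated data. Intervals are exact at 95%, and intervals and limits cover counting error only. A planned minimum of 10 cells per sum was not met by hepatocyte-like cells of KLF2 replicate 1, so that fit was added, as was the span comparison, after the data were seen. The genes named are all members, up to 4 genes per other list with the lowest adjusted p in a fit (2 where none passed), and the 3 genes most like Ccn1, Ccn2 and Yap1. A gene that this rule names is not reported here. Members and lists were chosen with earlier results of these data known. Positions are from GENCODE on GRCm38. Of the 10 members, 6 overlap another annotated gene, whose reads may not be told apart.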

Additional observations from a re-analysis of the deposited data

Results flagged for a closer look

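The effect of KLF2 on Ankrd1 differed between cell classes by a test of the difference itself. It was higher in hepatocyte-like than in endothelial-like cells by 5.026 on the log2 scale (edgeR adjusted p = 0.00518) and higher than in stromal-like cells by 5.038 (adjusted p = 3.7e-06). Hepatocyte-like cells had 341 and 517 CPM in KLF2 and 16.9 CPM in vector, stromal-like cells 159 and 50.04 CPM in KLF2 and 169 CPM in vector, and endothelial-like cells 1.06 and 1.40 CPM in KLF2 and 2.50 CPM in vector. The endothelial-like sums rest on 1 and 2 UMIs in KLF2 and 22 in vector. Ankrd1 passed the filter on low counts through its hepatocyte-like and stromal-like sums, and was not tested within endothelial-like cells alone. In KLF2 replicate 1, 1 cell gave 13 of the 14 hepatocyte-like UMIs and 1 cell gave 167 of the 223 stromal-like UMIs. Thinning to 1000 UMIs per cell ended the call against endothelial-like cells (difference 6.33, adjusted p = 1). The call against stromal-like cells held in each alternative run for this difference, with differences of 4.58 to 8.22. Those alternatives did not include DESeq2 or leaving out a KLF2 library.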

How the results depend on the processing

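No paired analysis was possible because the vector group had counts for replicate 2 alone, so the groups shared fewer than 2 replicate numbers. Leaving out vector replicate 2 would leave no vector sample, and it was not run. The causes of the changes below were not tested.

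In hepatocyte-like cells (75 genes higher, 79 lower) the counts were 26 and 39 with no filter on low counts, 17 and 16 with DESeq2, 161 and 47 without TMM factors, 0 and 0 at 10% mitochondrial UMIs or less, and 32 and 25, with 3 members higher, when thinned to 1000 UMIs. At resolution 0.5, 42 were higher. In the compartment (4 members higher, 1 lower), 6798 genes were higher without TMM factors, and 2 members were lower with no filter, DESeq2, the 10% limit, resolutions 0.5 and 2.0, pathway genes kept in clustering, the doublet-score cut, the haemoglobin-led cluster included and the joint fit of 3 classes. In stromal-like cells (1264 and 967 genes; 4 and 0 members), 1 member was lower with no filter. DESeq2 gave 438 and 272 genes with 1 member higher, no TMM factors 2601 and 465, and thinning 204 and 171 with 0 members. Resolution 0.5 gave 1723 genes lower, with 2 members higher and 3 lower, resolution 2.0 gave 1 member higher and 1 lower, and the doublet-score cut 1 higher. At resolution 0.5 the stromal-like class held 786 and 457 KLF2 cells, against 87 and 160 in the main run. Its vector cells numbered 354, against 352, so most of its KLF2 cells were not in the main class. The Tead1 value at resolution 0.5 below comes from that enlarged class. In endothelial-like cells (1303 and 1175 genes; 4 and 0 members), no filter gave 1871 lower with 1 member lower, DESeq2 701 and 295 with 1 member higher, no TMM factors 2170 and 547, the 10% limit 1 member lower, thinning 0 and 0 with 0 members, and the joint fit 605 lower with 1 member higher. Over the class differences (2 calls), thinning gave 1 and resolution 0.5, with the enlarged stromal-like class, gave 7.

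Without TMM factors the median of all genes moved by 1.12 in hepatocyte-like, 0.76 in compartment, 0.60 in stromal-like and 0.41 in endothelial-like cells (log2). With 1 KLF2 library left out no residual degree of freedom remained, so those values have no test. The signs that turned were those of Ccn2 in hepatocyte-like cells (0.9475 without TMM factors, −1.101 to 0.2439 with a KLF2 replicate left out), Ajuba in the compartment (0.05479 with no filter, 0.7521 without TMM factors, 0.02067 at resolution 0.5, 0.06604 at resolution 2.0, −0.2489 to 0.07412 with a replicate left out), Lats2 in the compartment (0.1436 without TMM factors, 0.9135 at the 10% limit), Amotl2 in stromal-like cells (0.3894 without TMM factors, −0.4789 to 0.07173 with a replicate left out), Tead1 in stromal-like cells (−0.0581 at resolution 0.5), Ccn2 in endothelial-like cells (−0.3313 when thinned) and Ajuba in endothelial-like cells (−0.2537 to 0.7088 with a replicate left out). Cd44 kept its call in the compartment in all 13 alternatives and lost it when thinned in stromal-like (adjusted p = 0.0569) and endothelial-like cells (adjusted p = 0.196). The 8 hepatocyte-like cells of KLF2 replicate 1 held 41038 UMIs, so 1 UMI there is 24.4 CPM.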
